A study of Mus musculus with 155 samples.

Results

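Chromatin regulators are the proteins that open, close and mark the packaging of DNA around histones, and 52 genes of these families were followed across 5 populations of sorted mouse brain cells. The 52 were every gene of the deposited table whose symbol starts with the family names Hdac, Kdm, Kmt, Setd, Smarc, Chd, Brd, Cbx, Ezh, Tet, Dnmt, Hmgn, Hmgb, Arid, Sirt or Kat2 to Kat8, and they made up 1.52% of its 3422 genes. No Ezh gene was among them. Sorted by what their products do, 13 were SWI/SNF-type remodeler subunits or ARID proteins, 9 were histone deacetylases or sirtuins, 7 were histone methyltransferases, 5 were bromodomain proteins, 4 were histone demethylases, 4 were high mobility group proteins, 3 were histone acetyltransferases, 3 were HP1 chromobox proteins, 2 were CHD remodelers and 2 acted on DNA methylation. All 52 were found in GENCODE vM21 on GRCm38, on 20 chromosomes with at most 5 on any of them, and 51 were protein coding. The exception, Smarce1-ps1, is a processed pseudogene of Smarce1.

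Writers such as Kmt2 methyltransferases and Kat acetyltransferases place histone marks, erasers such as Kdm demethylases and Hdac deacetylases remove them, and readers such as the bromodomain and chromobox proteins bind them. SWI/SNF complexes use ATP to slide or evict nucleosomes around a motor subunit, either Smarca2 or Smarca4, and exchange other subunits as neural cells mature. In the oligodendrocyte lineage, deacetylases and Smarca4 complexes are known to be needed for myelin gene expression, while the neuroblasts of the adult subventricular zone form and migrate through life under control of remodelers such as Chd7.

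Polyadenylated RNA of 155 single cells was read by SMART-Seq2, a full-length protocol, after flow sorting from the dissected subventricular zone, the germinal wall of the lateral ventricle, together with the corpus callosum, the white matter above it. Mice were 8 to 10 weeks old, 5 per condition. NB were 37 cells sorted for a GFP reporter of Gad67 (strain CB6-Tg(Gad1-EGFP)G42Zjh/J) from healthy mice, and NBL were 27 such cells of the same strain taken 6 days after demyelination with LPC, a lipid that strips myelin. O were 29 cells sorted for Tomato (strain Olig2-tdTomato TH39Gsat/Mmcd) from healthy mice, and OL were 22 such cells after LPC. OligNBL were 40 cells sorted for both reporters from a cross of these strains, labelled as demyelinated although their titles carry a control mark. GFP and Tomato are transgenes driven by Gad1 and Olig2 regulatory sequence, so a population is what the gate took and not a defined cell type. Strain differs with the gate, and the parts of the brain were pooled, so neither can be told apart from the population. The labels tie no cell to a mouse. A population therefore counted as 1 sample, no test was made, and every difference below describes these cells alone.

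The promoters of 4 members are shown because their genes carried the main contrasts: Cbx5 against its relative Cbx3, and the SWI/SNF motors Smarca2 and Smarca4, which were high in the same population. Each is 300 bases, 250 before to 50 after the start, from RefSeq on GRCm38.p6, read 5′ to 3′ on the gene's strand. Capitals mark the GC box (GGGCGG) and the CCAAT box (CCAAT) on either strand.

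Cbx5, chr15:103239803-103240102, minus strand: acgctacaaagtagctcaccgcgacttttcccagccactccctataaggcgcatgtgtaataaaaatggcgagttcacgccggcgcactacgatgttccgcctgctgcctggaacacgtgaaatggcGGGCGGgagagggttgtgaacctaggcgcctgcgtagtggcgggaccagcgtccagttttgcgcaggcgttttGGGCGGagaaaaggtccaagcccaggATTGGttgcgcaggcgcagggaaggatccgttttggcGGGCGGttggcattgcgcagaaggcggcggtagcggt

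Cbx3, chr6:51470366-51470665, plus strand: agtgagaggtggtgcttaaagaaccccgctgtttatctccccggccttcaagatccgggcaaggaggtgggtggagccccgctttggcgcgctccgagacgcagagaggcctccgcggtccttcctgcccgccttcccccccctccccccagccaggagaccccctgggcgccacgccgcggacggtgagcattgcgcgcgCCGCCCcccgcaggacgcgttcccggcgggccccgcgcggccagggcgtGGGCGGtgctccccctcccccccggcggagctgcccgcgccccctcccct

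Smarca2, chr19:26604910-26605209, plus strand: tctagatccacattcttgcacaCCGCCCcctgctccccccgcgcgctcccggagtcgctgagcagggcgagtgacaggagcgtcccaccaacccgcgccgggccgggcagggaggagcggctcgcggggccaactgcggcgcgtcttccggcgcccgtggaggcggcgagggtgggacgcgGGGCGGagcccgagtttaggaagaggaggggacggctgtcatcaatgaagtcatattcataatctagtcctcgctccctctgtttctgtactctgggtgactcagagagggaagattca

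Smarca4, chr9:21615919-21616218, plus strand: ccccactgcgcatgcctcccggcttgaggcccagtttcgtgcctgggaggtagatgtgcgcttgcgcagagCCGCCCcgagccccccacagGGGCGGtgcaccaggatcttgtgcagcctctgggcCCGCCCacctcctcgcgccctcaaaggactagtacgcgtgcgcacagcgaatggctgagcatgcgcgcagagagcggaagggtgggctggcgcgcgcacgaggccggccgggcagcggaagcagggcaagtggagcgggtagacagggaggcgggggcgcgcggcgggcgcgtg

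Cbx5 held 3 GC boxes and 1 CCAAT box, Smarca4 held 3 GC boxes, and Cbx3 and Smarca2 held 2 each. These promoters were therefore alike in kind: all 4 were rich in CpG, with 29 CpG sites in Cbx5 and Smarca2, 33 in Smarca4 and 34 in Cbx3. Members differed, from 0 CpG sites in Hdac9, 2 in Dnmt1 and 6 in Hdac7 to 57. Of the 39 members with a promoter in the RefSeq table, 82.1% held a GC box on either strand, against 65.0% of the 2497 table genes with a promoter and 35.9% of all 27025 promoters. Their median was 25 CpG sites, against 22 and 7. A TATA box (TATAAA) was found in 2.56% of members, 7.85% of table genes and 14.2% of all promoters, and CCAAT in 41.03%, 39.7% and 38.02%. A match describes the letters and does not show a bound site.

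Values are given as the level (log2(value + 1), averaged over the cells, ± their SD) and as presence, a cell having the gene among its 500 highest genes. Presence was counted over 35 NB cells, because 2 had fewer than 500 detected genes, and over all cells elsewhere. Taken as 3 cells of the total, a presence of 0 allows a share of up to 8.57% in NB, 11.1% in NBL, 7.50% in OligNBL, 13.6% in OL and 10.3% in O, while the upper bounds of exact 95% intervals reach 8.81% to 15.4%. Column totals differed by 0.101% between cells, so depth cannot be read from the table, and levels are not compared between genes, whose lengths differ. Median genes detected per cell were 1114 in NB, 1161 in NBL, 1397 in OligNBL, 950.5 in OL and 1187 in O.

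Markers followed the labels only in part. The EGFP transgene was at 5.19 in NB, 2.42 in NBL and 3.48 in OligNBL against 0.36 in OL and 0.43 in O, but TdTomato was low in every population, at 0.31 in OligNBL and OL and 0.35 in O against 1.14 in NBL, so its RNA did not mark the populations labelled for Tomato, and populations are named here by label. The summed level of 8 mature oligodendrocyte genes had a median of 89.9 in OL and 63.6 in O, against at most 1.60 in the others, where Mal and Mog were at 0 in OligNBL and Mal and Cldn11 in NBL. That of 8 neuroblast genes was 28.4 in NB, 26.3 in NBL and 33.02 in OligNBL, against 5.20 in OL and 6.31 in O, from different genes: Sp8 was at 7.63, 1.74 and 0.60 in the first 3, and Tubb3 at 1.56, 5.57 and 8.81. Pecam1, the only endothelial marker measured, was present in 91.4% to 100% of the cells of each population, at levels from 6.54 in NB to 10.53 in O, and no listed astrocyte or microglia marker was measured. Cells close in cell number resembled each other: the mean correlation of cells within 4 numbers was 0.49 to 0.56 in each population, against 0.19 to 0.35 at 17 or more. Each population was therefore also cut into 3 blocks of consecutive cell numbers, and a gene is called apart where all 3 block means of a population lay above all 3 of the other. The sources used here do not say what the cells of a block share.

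Members were more often among the highest genes in NB and NBL than in OL and O. Of the 52, a cell had 12.8 ± 2.47 among its 500 highest in NB (SD over 35 cells, 9 to 19), 12.1 ± 1.99 in NBL (27 cells, 9 to 15), 10.5 ± 2.80 in OligNBL (40 cells, 6 to 17), 9.86 ± 1.75 in OL (22 cells, 7 to 15) and 8.52 ± 1.96 in O (29 cells, 3 to 12). The members' share of the table would give 7.60. Each neighbouring pair in this order lay within the SD between cells, and the ranges of all 5 overlapped. Among the 300 highest genes OligNBL and OL changed places, at 6.53 and 6.59 members a cell. Counted instead by any value above 0, the order changed and OligNBL was highest, at 26.2 members a cell against 22.6 in NB, 24.8 in NBL, 18.9 in OL and 22.03 in O. The mean level over the 52 members was 2.33 in NB, 2.31 in NBL, 2.07 in OligNBL, 1.89 in OL and 1.70 in O, while that of all genes was 1.35 to 1.48. As gene lengths differ, neither this nor the 7.60 shows that members are expressed above other genes.

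Presence differed widely between populations, for members and for all genes. Hmgn2 and Cbx3 were present in at least 50% of the cells of every population, which makes 3.85% of members against 1.72% of all genes. In some population 16 members reached 50% (30.8%, all genes 21.01%), and 28 had no present cell in at least 1 population (53.8%, all genes 71.6%). Another 7 (Arid1b, Arid5a, Chd6, Dnmt1, Hdac4, Kat6a and Kat8) stayed under 20% everywhere (13.5%, all genes 24.8%). OligNBL had the highest level for 14 members (26.9%, against 26.8% of all genes), OL for 13 (25% against 16.7%), NB for 12 (23.1% against 19.5%), NBL for 8 (15.4% against 17.3%) and O for 5 (9.62% against 19.7%).

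**Figure D1:**
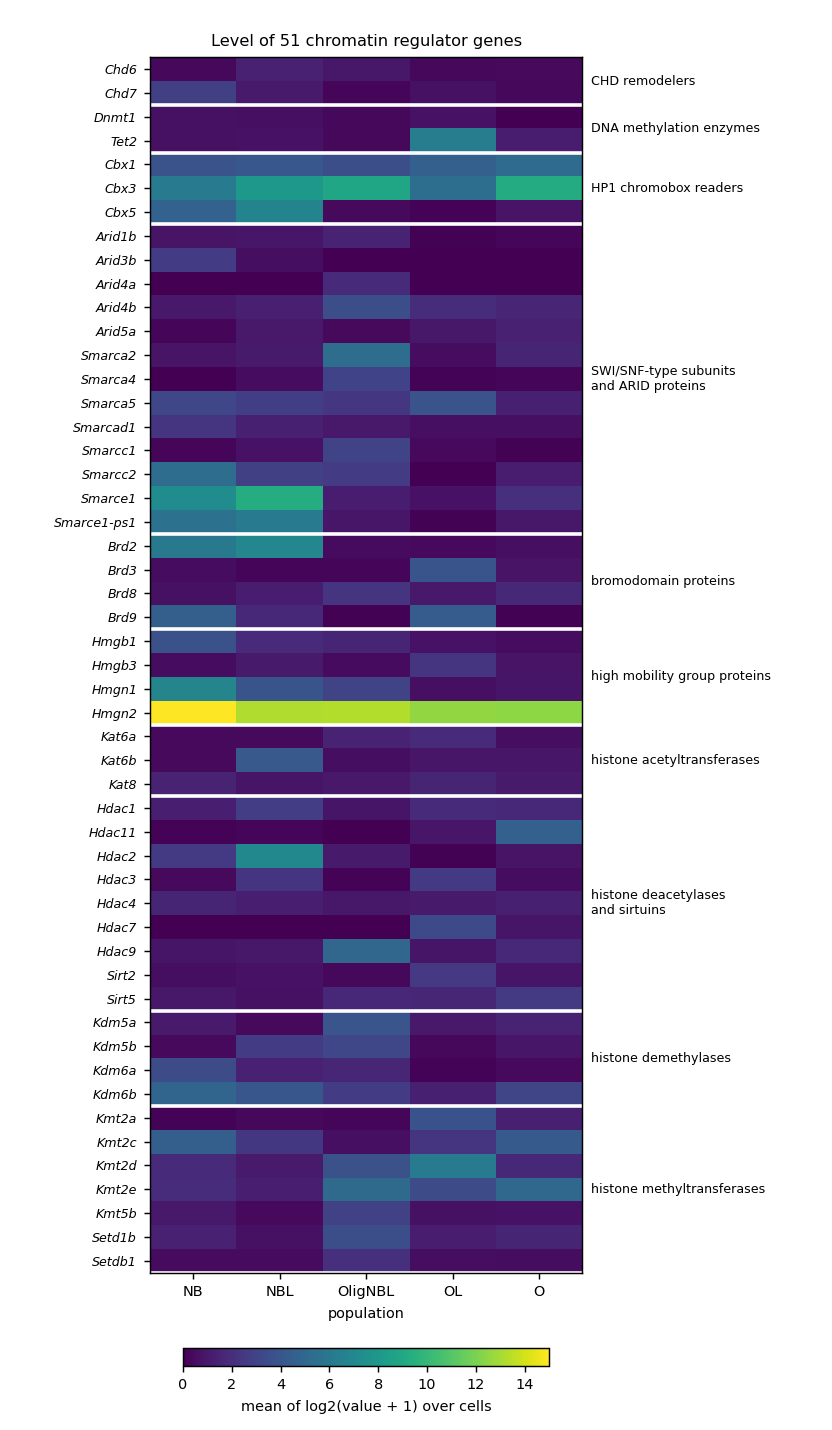
Level (cell average of log2(value + 1)) of 51 of the 52 members in the 5 populations, ordered by role and then by symbol. Hmgn2 and Cbx3 are lit in every column, whereas Cbx5, Brd2 and Smarce1 are lit in NB and NBL, Smarca2, Smarca4 and Hdac9 in OligNBL, and Tet2 and Kmt2d in OL.

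Differences of at least 2 in level were counted in 6 comparisons, which share cells with each other. After demyelination, 4 members were at least 2 higher in NBL than in NB (all genes 9.76%) and 6 were lower (all genes 8.39%), with 4 of 52 apart by blocks (all genes 23%) and a median difference of 0.01 (all genes -0.00). In OL against O, 8 were higher (all genes 8.36%) and 2 lower (all genes 7.92%), with 7 apart (all genes 18.7%) and a median of -0.07 (all genes -0.10). Of the 2 measured genes of dividing cells, Top2a was at 4.20 in NBL and 0.29 in NB, but Mcm5 was at 0.05 and 0.22. In OL and O, Mcm5 was at 4.25 and 0.96, but Top2a was at 0.17 and 0.24. Their part in these counts was not tested. The NBL share of members was close to that of all genes in both directions, and the OL share was above it for higher and below it for lower members.

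Between gates the counts were larger. OligNBL against NBL gave 10 higher (all genes 12.2%) and 7 lower (all genes 10.3%), with 20 apart (all genes 32.5%). OligNBL against OL gave 11 higher (all genes 13.2%) and 9 lower (all genes 12.2%), with 24 apart (all genes 36.1%). OligNBL against NB gave 10 higher (all genes 12.8%) and 12 lower (all genes 12%), with 16 apart (all genes 37.5%). Of members, 19.2% were higher and 13.5% lower in OligNBL than in NBL. Against OL these shares were 21.2% and 17.3%, and against NB 19.2% and 23.1%. Each lay above the share of all genes. Fewer members than all genes stayed under 20% presence everywhere (13.5% against 24.8%), and the part of this in the shares was not tested. The share apart lay above that of all genes against NBL (38.5%) and OL (46.2%) and below it against NB (30.8%).

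O against NB gave 3 higher members (all genes 12.3%) and 12 lower (all genes 13.5%), with 15 apart (all genes 37.5%). Past that limit 23.1% of members were lower in O and 5.77% higher, whereas 37 of the 52 lay between. Median differences over the 52 stayed within 0.30 of 0 in all 6, at -0.24 for OligNBL against NBL, 0.29 against OL, -0.22 against NB and 0.05 for O against NB. The corresponding medians of all genes were 0.03, 0.13, 0.08 and 0.09.

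**Figure D2:**
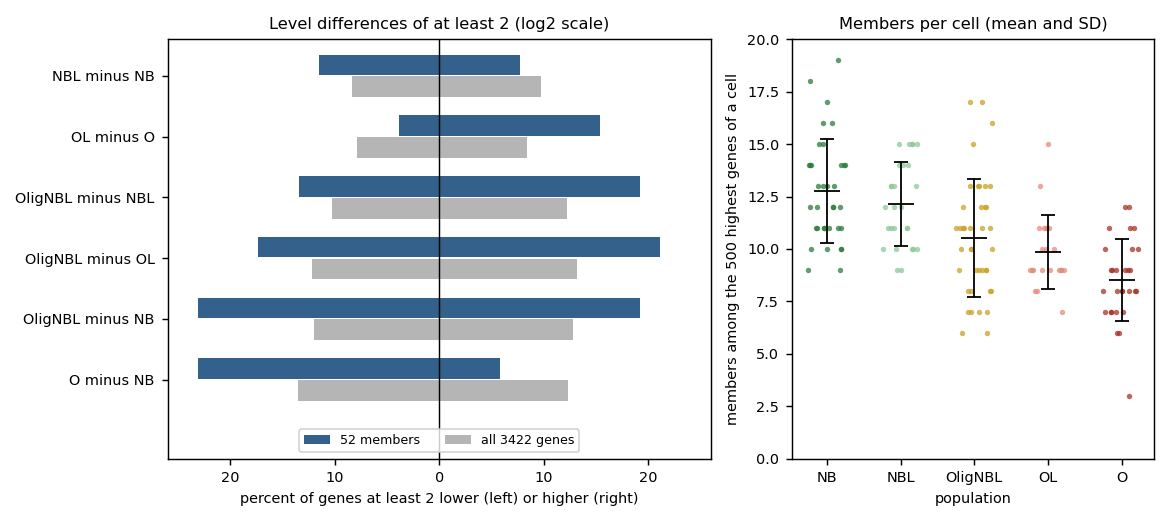
Left, percent of the 52 members and of all 3422 genes whose level was at least 2 lower (left of 0) or higher (right of 0) in each comparison. Right, members among the 500 highest genes of each cell, with 1 point per cell and bars for the mean and SD, with means from 12.8 in NB to 8.52 in O.

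How far these counts depend on some of the cells was read by leaving out each block in turn. None of the 10 members called in NBL against NB stayed at least 2 apart with every block left out, and none of the 10 was apart by blocks. In OL against O, 2 of 10 did (Tet2 and Cbx3). Between gates more did: 9 of 17 in OligNBL against NBL, 9 of 20 against OL, 12 of 22 against NB, and 10 of 15 in O against NB. The same was not counted over all genes, so nothing particular to the members can be read from these numbers.

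HP1 proteins are chromobox readers that bind the methyl mark of silent heterochromatin. Cbx5, which encodes HP1 alpha, was high in NB and NBL and low in the rest. Its level was 4.74 ± 5.68 in NB (0 to 18.99, median 2.37) and 6.78 ± 2.73 in NBL (1.69 to 13.66, median 6.00), against 0.36 ± 0.78 in OligNBL (0 to 3.22), 0.16 ± 0.54 in OL (0 to 2.14) and 0.81 ± 1.31 in O (0 to 4.45), with a median of 0 in these 3. Every NBL cell held Cbx5, and the upper NBL cells lay above all cells of OligNBL, OL and O, whereas NB ranged from none to the highest values. It was present in 25 of 27 NBL cells (92.6%, exact 95% interval 75.7 to 99.1, counting error only) and 16 of 35 NB cells (45.7%, 28.8 to 63.4), against 0 of 40, 0 of 22 and 2 of 29. The level in OligNBL differed from NBL by -6.42 and from NB by -4.38, apart by blocks in both. Between NBL and NB it differed by 2.05, but by 1.08 without the first block and 1.34 without the last.

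Cbx3, which encodes HP1 gamma, was found in most cells of every population. The gene was present in 32 of 35, 27 of 27, 39 of 40, 18 of 22 and 29 of 29 cells of NB, NBL, OligNBL, OL and O, with levels of 6.11 ± 2.65, 8.00 ± 3.42, 8.88 ± 2.89, 5.40 ± 2.99 and 9.25 ± 3.76. The lowest level was thus in OL, whose difference from O was -3.85 and stayed between -4.14 and -3.71 as each block was left out, though blocks overlapped. Cbx1, which encodes HP1 beta, varied less, from 3.58 ± 2.32 in OligNBL to 5.24 ± 1.74 in O. All 27 NBL cells and all 29 O cells had a Cbx1 value above their minimum, and no comparison reached 2. In OligNBL, 39 of 40 cells therefore had Cbx3 among their highest genes without Cbx5, while 25 of 27 NBL cells had both.

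Bromodomain proteins bind acetylated histones. Brd2, a BET protein that couples acetylation to transcription, was high in the same populations as Cbx5. Its level was 6.04 ± 5.72 in NB (0 to 18.99, median 4.77) and 6.92 ± 4.43 in NBL (0 to 15.47, median 7.73), against 0.45 ± 0.91 in OligNBL, 0.38 ± 1.79 in OL and 0.60 ± 1.23 in O, each with a median of 0. It was present in 22 of 35 and 22 of 27 cells of NB and NBL and in 1 of 40, 1 of 22 and 2 of 29 of the others. Ranges overlapped at the low end, since some NB and NBL cells had none, and 1 OL cell reached 8.41. OligNBL differed from NBL by -6.48 and from NB by -5.59, and O from NB by -5.44, the last by -2.45 without the second block, where NB was highest. Cbx5 and Brd2 were both among the highest genes in 20 of 27 NBL cells, where Cbx5 was present in 25 and Brd2 in 22. Whether they go together within cells was not tested.

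Brd3, also a BET protein, had its highest level in OL. It was at 3.89 ± 4.51 in OL (0 to 15.71, median 2.44), present in 9 of 22 cells, and at 0.81 or less elsewhere. The Brd3 cells of OL lay in the second and last blocks, with means of 6.76 and 5.10 against 0.31 in the first. The difference of 3.07 from O was 1.78 without the second block. Most OL cells high in Brd3 were also high in Hdac7 and Kmt2a, which are described below.

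Brd9, a subunit of a noncanonical SWI/SNF complex, was high in NB and in OL. Its level was 4.54 ± 4.75 in NB (0 to 18.14, median 2.56) and 1.74 ± 2.96 in NBL (0 to 13.05, median 0.13), a difference of -2.81. In OL against O the lesion difference ran the other way, from 0.06 ± 0.34 in O (0 to 1.83) to 4.36 ± 5.18 in OL (0 to 16.42, median 2.06), a difference of 4.30. Within OL the cells of the first block had a mean of 10.29, those of the second 0 and those of the last 1.94. Without the first block the difference from O was 0.88, and the difference of OligNBL from OL, -4.26, was -0.83. In NB against NBL the last block carried it, and without that block the difference was -0.69. Brd8 was at 2.30 ± 3.65 in OligNBL and between 0.69 and 1.66 elsewhere.

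**Figure D3:**
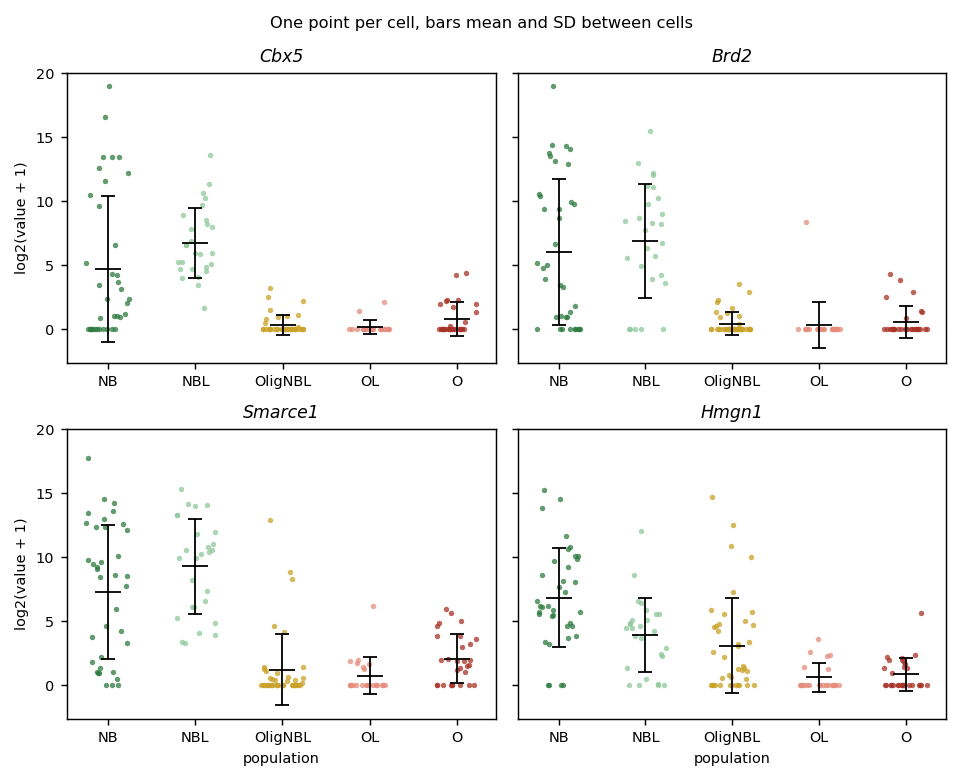
Values of Cbx5, Brd2, Smarce1 and Hmgn1, as log2(value + 1), with 1 point per cell and bars for the mean and SD between cells in each population. Cbx5 and Brd2 cells are high in NB and NBL and near 0 in the other populations, and Hmgn1 is present in 31 of 35 NB cells and 1 of 29 O cells.

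High mobility group proteins bend DNA or loosen linker histone on the nucleosome. Hmgn2 was present in every ranked cell of all 5 populations, with a median of 15.11 in NB (9.42 to 20.19), 13.25 in NBL (9.09 to 16.86), 13.40 in OligNBL (5.52 to 20.19), 12.72 in OL (4.15 to 20.19) and 13.59 in O (4.33 to 19.50). Its relative Hmgn1 instead differed in steps across the populations, with levels of 6.83 ± 3.86 in NB (0 to 15.24, median 6.21), 3.91 ± 2.89 in NBL (0 to 12.03, median 4.48), 3.10 ± 3.72 in OligNBL (0 to 14.70, median 1.45), 0.62 ± 1.12 in OL (0 to 3.61) and 0.86 ± 1.29 in O (0 to 5.67). The gene was present in 31 of 35, 17 of 27, 15 of 40, 1 of 22 and 1 of 29 cells. Ranges overlapped between all populations, but O differed from NB by -5.97, apart by blocks and between -7.45 and -4.60 with any block left out. NBL differed from NB by -2.92, and by -1.71 without the second block. All Hmgn1 cells also had Hmgn2.

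Hmgb1, an abundant DNA-bending protein, was at 3.74 ± 3.91 in NB and between 0.50 and 1.83 in the others, with O differing from NB by -3.24, or -1.85 without the last block. Hmgb3 was at 2.33 ± 4.41 in OL and between 0.44 and 1.10 elsewhere. These genes have many pseudogenes: 29.8% of Hmgn2, 33.04% of Hmgb3 and 24.7% of Hmgb1 31-base words occur in transcripts of other genes, against 6.13% for Hmgn1, so the first 3 are uncertain where counting split reads between copies.

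SWI/SNF subunits divided between the populations. The motor Smarca2 was at 5.35 ± 3.45 in OligNBL (0 to 13.90, median 4.31), against 0.81 ± 1.65 in NB (0 to 8.23), 1.06 ± 2.27 in NBL (0 to 11.43), 0.50 ± 1.12 in OL (0 to 3.47) and 1.55 ± 1.56 in O (0 to 4.99). Apart from single NB and NBL cells, the upper OligNBL cells lay above all others. It was present in 27 of 40 OligNBL cells (67.5%, exact interval 50.9 to 81.4) and in 2 of 35, 1 of 27, 0 of 22 and 3 of 29 of the rest. OligNBL differed by 4.29 from NBL, 4.85 from OL and 4.54 from NB, apart by blocks in all 3 and between 3.81 and 5.58 with any block left out. OligNBL cells also had the most genes detected and a summed level of 6 oligodendrocyte progenitor markers of 11.4 in the median, against 0 in NB, 2.72 in NBL, 4.35 in OL and 6.72 in O. Of these markers, Pdgfra, Cspg4, Ptprz1 and Lhfpl3 were highest in OligNBL. Sox10 was at 0.58 in OligNBL against 4.47 in OL and 1.94 in O, and Olig1 at 0.90 against 1.52 in NBL and 1.09 in OL. Among cells with at least 1000 genes detected the Smarca2 differences from NBL, OL and NB were 4.20, 4.94 and 4.78, and the part of the progenitor markers was not tested.

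Smarca4, the alternative motor also called Brg1, was high in the same population. Its level was 3.02 ± 3.48 in OligNBL (0 to 13.59, median 2.38), against 0.03 ± 0.20 in NB, 0.52 ± 1.48 in NBL, 0.13 ± 0.59 in OL and 0.24 ± 0.74 in O, each with a median of 0. Of 40 OligNBL cells, 17 had it among the highest genes and 17 did not detect it, and outside OligNBL it was present only in 2 NBL cells. In OligNBL the block means were 0.64, 3.55 and 5.04, and the difference from NBL, 2.50, was 1.52 without the last block. Among their highest genes, 14 of these 40 cells had both motors, 13 only Smarca2, 3 only Smarca4 and 10 neither.

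The core scaffolds Smarcc1 and Smarcc2 were both present in 1 NB cell, 1 OligNBL cell and no other. Smarcc1, known as BAF155, was at 3.08 ± 2.94 in OligNBL (0 to 11.76, median 2.66) and at most 0.76 elsewhere, present in 15 of 40 OligNBL cells and in 1 of 35, 1 of 27, 1 of 22 and 0 of 29 of the others. OligNBL differed by 2.32 from NBL, 2.69 from OL and 2.81 from NB, apart by blocks in each, and by 1.93 from NBL and 1.95 from OL without the last block. Smarcc2, known as BAF170, was at 5.34 ± 5.67 in NB (0 to 20.19, median 3.53), 2.87 ± 3.21 in NBL and 2.66 ± 4.68 in OligNBL, was detected in 0 of 22 OL cells and was at 1.15 ± 3.42 in O. The first NB block had a mean of 10.78, and without the first block NB and OligNBL differed by -0.25 in place of -2.68. Among their highest genes, 14 of 40 OligNBL cells had only Smarcc1, 8 only Smarcc2, 1 both and 17 neither.

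Smarce1, the subunit BAF57 with an HMG domain, was high in NB and NBL, where Smarca2 was low. Its level was 7.32 ± 5.24 in NB (0 to 17.75, median 8.53) and 9.29 ± 3.71 in NBL (3.29 to 15.35, median 10.28), against 1.22 ± 2.79 in OligNBL (0 to 12.91, median 0), 0.74 ± 1.45 in OL (0 to 6.23) and 2.07 ± 1.92 in O (0 to 5.93). The gene was present in 23 of 35, 25 of 27, 5 of 40, 1 of 22 and 8 of 29 cells, so a few OligNBL cells reached the range of NBL. OligNBL differed from NBL by -8.07, between -9.75 and -7.07 with any block left out, and from NB by -6.10. Its pseudogene Smarce1-ps1 gave 6.24 ± 3.90 in NBL, 5.57 ± 4.75 in NB and 0.98 or less in the other 3. Of its 31-base words 75.9% occur in other transcripts, 65.7% in Smarce1 itself, and 19 NBL and 22 NB cells had both among their highest genes. The split of reads between these is therefore uncertain, and the pair is not counted as 2 findings.

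Over the 7 genes Smarca2, Smarca4, Smarca5, Smarcad1, Smarcc1, Smarcc2 and Smarce1, the median cell had 2 among its highest genes in NB, NBL and OligNBL and 0 in OL and O. Cells with none of the 7 among their highest genes numbered 2 in NB, 1 in NBL and 1 in OligNBL. Such cells numbered 13 of 22 in OL and 17 of 29 in O. Smarca5, the motor of ISWI complexes and not a SWI/SNF subunit, was at 3.83 ± 5.70 in OL, 3.21 ± 4.45 in NB, 2.77 ± 4.00 in NBL, 2.37 ± 3.72 in OligNBL and 1.34 ± 3.70 in O, with medians of 0 in 4 of them, and 33.3% of its 31-base words are shared with other transcripts. OL differed from O by 2.49, apart by blocks, with 8 of 22 and 8 of 29 cells detecting it. Smarcad1, like Smarca5 not a SWI/SNF subunit, was highest in NB, at 2.23 ± 2.81.

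**Figure D4:**
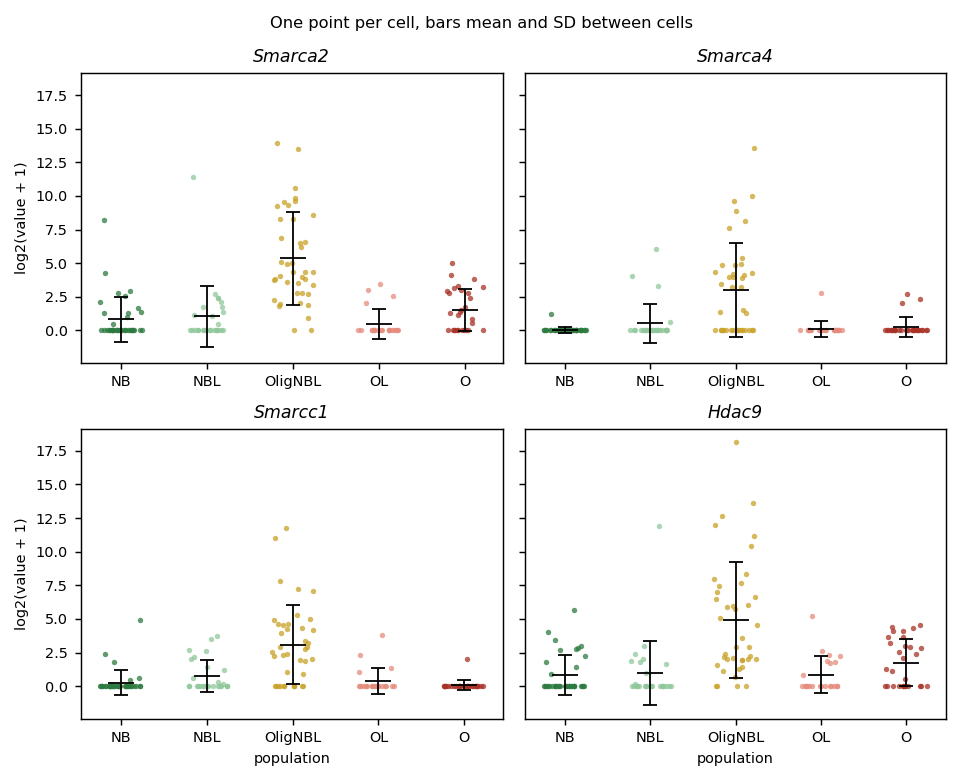
Values of Smarca2, Smarca4, Smarcc1 and Hdac9, as log2(value + 1), with 1 point per cell and bars for the mean and SD between cells in each population. OligNBL carries most of the high cells in every panel, with 27 of 40 cells present for Smarca2, and many OligNBL cells at 0 for Smarca4.

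ARID proteins bind DNA through a shared domain, and some belong to SWI/SNF or deacetylase complexes. Arid4a, a partner of the Sin3 deacetylase complex, was detected in 20 of 40 OligNBL cells (1.87 ± 2.55) and in 2 of 29 O cells and no cell of the other 3 populations. Its block means in OligNBL were 0.28, 1.79 and 3.66. Arid4b, of the same complex, was at 3.62 ± 3.56 in OligNBL and between 1.00 and 1.91 elsewhere, and its difference of 2.32 from NBL was 1.17 without the first block. Arid3b was at 2.65 ± 4.62 in NB and at 0.58 or less in the rest, where it was present in no cell, although the first NB block, with a mean of 5.37, held most of it and O differed from NB by -2.60, or -1.11 without that block. Arid1b and Arid5a were at 1.42 or less everywhere.

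CHD remodelers slide nucleosomes through a chromodomain ATPase. Chd7, mutated in CHARGE syndrome and needed in both neurogenesis and oligodendrocyte maturation, was at 2.86 ± 3.75 in NB (0 to 14.17), 1.06 ± 1.73 in NBL, 0.22 ± 0.67 in OligNBL, 0.68 ± 1.70 in OL and 0.30 ± 0.72 in O. Presence was 14 of 35 in NB, 3 of 27 in NBL, 2 of 22 in OL, and 0 in OligNBL and O. OligNBL differed from NB by -2.65 and O from NB by -2.56, both apart by blocks, with -1.67 and -1.73 without the second block. Chd6 was at 1.35 or less in all populations.

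Deacetylases remove acetyl groups and mostly act in corepressor complexes. Hdac2, a class I enzyme of these complexes, was at 7.01 ± 6.65 in NBL (0 to 19.50, median 3.66), 2.53 ± 4.64 in NB (0 to 17.16), 1.06 ± 3.78 in OligNBL (0 to 19.50), 0.06 ± 0.29 in OL and 0.79 ± 3.20 in O, with medians of 0 outside NBL. It was present in 15 of 27 NBL cells against 7 of 35 NB cells. The NBL cells with high Hdac2 sat together, with block means of 1.24, 14.28 and 5.52, and those of NB with 6.50, 0.21 and 0.55. The difference of 4.49 from NB therefore became -0.26 without the second block. Low cell numbers were high in several populations. NB cells 1 to 6 were at 6.90 or more, OligNBL cells 14 and 16 at 14.08 and 19.50, and O cell 19 at 16.86. OligNBL cells 10 and 11 were at 1.02 and 1.82. Blocks cut within each population do not show such likeness between populations, and its cause was not tested. Hdac1, the close relative of Hdac2, was at 2.71 ± 3.95 in NBL and 0.88 to 1.76 elsewhere. Its difference of 1.45 between NBL and NB was -0.31 without the second block. All 7 NBL cells with Hdac1 among their highest genes also had Hdac2 there. These 7 lay within cell numbers 66 to 76, where every NBL cell had Hdac2 at 12.03 or more, so a link between the genes cannot be read from this. As 40.02% of Hdac1 31-base words occur in other transcripts, its values are uncertain.

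Hdac3, the enzyme of NCoR complexes, was at 2.25 ± 2.66 in NBL against 0.37 ± 1.34 in NB. It was at 2.57 ± 3.61 in OL against 0.51 ± 1.19 in O. In OligNBL, also labelled demyelinated, it was lowest, at 0.17 ± 0.46. The NBL difference, under 2, was apart by blocks. The OL difference of 2.06 rested on the first block, with a mean of 6.26, and was -0.11 without it. Hdac9, a class IIa enzyme that shuttles from nucleus to cytoplasm, was also high in OligNBL. It was at 4.93 ± 4.31 in OligNBL (0 to 18.14, median 3.24) against 0.83 ± 1.47 in NB, 0.96 ± 2.38 in NBL, 0.85 ± 1.37 in OL and 1.75 ± 1.76 in O, and was present in 19 of 40 cells against 1, 1, 1 and 7. OligNBL differed by 3.97 from NBL, 4.08 from OL and 4.10 from NB, apart by blocks in all, and by 2.41 or more with any block left out. Smarca2 and Hdac9 were both among the highest genes in 11 OligNBL cells, with only Smarca2 there in 16 and only Hdac9 in 8.

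Hdac7, also of class IIa, was detected in 12 of 22 OL cells (3.31 ± 3.98, 0 to 14.77, median 2.11) and 6 of 29 O cells (0.84 ± 2.01), in 1 NBL and 1 OligNBL cell and in no NB cell. Its OL block means were 0.24, 6.34 and 3.79, and the difference of 2.47 from O was 0.93 without the second block. Most OL cells high in Hdac7 were also high in Brd3 and Kmt2a. Hdac11, the class IV enzyme, was at 4.58 ± 5.71 in O (0 to 16.62, median 1.44) against 0.90 ± 1.86 in OL (0 to 7.85) and at most 0.24 in NB, NBL and OligNBL, and was present in 10 of 29 O cells and 1 of 22 OL cells. OL differed from O by -3.68, apart by blocks, and by -1.42 without the last block, where O had a mean of 9.81. Of Hdac11 31-base words 16.3% are shared, mostly with an unnamed gene model. Hdac4 varied little, between 0.94 and 1.57. Sirt2, the sirtuin known from myelinating oligodendrocytes, was at 2.47 ± 3.19 in OL and 0.85 or less elsewhere, with block means of 5.60, 0.73 and 0.62 in OL. Sirt5, a mitochondrial enzyme, was at 2.55 ± 3.26 in O, present in 11 of 29 cells.

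Acetyltransferases write the marks that bromodomains read. Kat6b, which acetylates histone H3, was at 4.19 ± 5.32 in NBL (0 to 18.14, median 1.43) and at most 0.93 in the other populations. Its NBL block means were 0.55, 1.57 and 10.43, so that the difference of 3.82 from NB was 0.52 without the last block. Kat6a was at 1.85 ± 3.99 in OL and 1.42 ± 2.20 in OligNBL, and 0.53 or less in the rest. Kat8, the enzyme for lysine 16 of histone H4, was between 0.85 and 1.52 in all 5.

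Kmt2 and Setd1b enzymes methylate lysine 4 of histone H3 at enhancers and promoters. Kmt2d was at 6.21 ± 5.47 in OL (0 to 19.50, median 4.18) and 3.73 ± 2.78 in OligNBL (0 to 14.26, median 3.30), against 1.66 ± 1.22 in O (0 to 4.00), 1.80 ± 1.66 in NB and 1.08 ± 1.11 in NBL. The gene was present in 14 of 22 OL and 17 of 40 OligNBL cells against 2 of 29, 8 of 35 and 1 of 27. OligNBL differed from NBL by 2.65, between 2.32 and 3.05 with any block left out and apart by blocks. OL differed from O by 4.55 and was apart by blocks, but its first block had a mean of 12.37 against 2.23 and 3.15, so that without it the difference was 0.94. OligNBL against OL went from -2.48 to 1.24 without that block.

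Kmt2a, the mixed lineage leukemia enzyme, was at 3.75 ± 4.87 in OL, 1.34 ± 2.47 in O and 0.31 or less in the other 3. OligNBL differed from OL by -3.49, apart by blocks. The OL block means were 0.57, 6.08 and 5.06. The 8 of 22 OL cells with Kmt2a among their highest genes followed each other in cell number, across the border of the last 2 blocks. Of 4 sets of alike OL cells, 3 were below 1 and the highest was at 9.43. Blocks therefore cut through this group, and being apart by blocks rests on it. Brd3 and Hdac7 were high in the same cells, so these genes are not counted as separate findings. The Kmt2a difference between OL and O, 2.42, was 1.30 without the second block. Kmt2e, which lacks clear methyltransferase activity, was at 5.20 ± 5.13 in OligNBL and 5.10 ± 3.95 in O, with 3.42 ± 3.86 in OL, 1.88 ± 4.06 in NB and 1.25 ± 1.61 in NBL. It was present in 21 of 40 OligNBL and 19 of 29 O cells and in 5 of 35 NB cells. O differed from NB by 3.21, between 3.17 and 3.27 with any block left out, although blocks overlapped because the first NB block had a mean of 5.02. As for Hdac2, low cell numbers were high in several populations. NB cells 1 to 6 were at 5.07 or more, OligNBL cells 14 and 16 at 14.26 and 15.35, and O cell 19 at 20.19. OligNBL cell 11 was at 3.03. Without the first block OligNBL differed from NBL by 1.41 in place of 3.95.

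Kmt2c, a partner of Kmt2d in function, had another pattern, at 4.57 ± 4.48 in NB, 4.25 ± 5.12 in O, 2.43 ± 3.34 in NBL, 2.33 ± 3.40 in OL and 0.63 ± 1.20 in OligNBL, where it was present in 1 of 40 cells. OligNBL differed from NB by -3.94, apart by blocks, and by -2.17 without the last block. NBL differed from NB by -2.14, and by 0.06 without the last block. Setd1b was at 3.61 ± 5.20 in OligNBL and 0.67 to 1.54 elsewhere, differing by 2.94 from NBL, 2.49 from OL and 2.25 from NB, all apart by blocks, with 1.38 against OL and 1.63 against NB without the second block. Kmt5b, which methylates lysine 20 of histone H4, and Setdb1, which methylates lysine 9 of histone H3, were also highest in OligNBL, at 2.94 ± 3.36 and 2.10 ± 2.64 against at most 1.04 and 0.57. Of the 7 methyltransferases, 4 were at least 2 higher in OligNBL than in NBL (all genes 12.2%), of which Kmt2e fell short of 2 without the first block and Kmt5b, with 1.74, without the second. Kmt2c was lower by a difference of -1.80, apart by blocks.

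**Figure D5:**
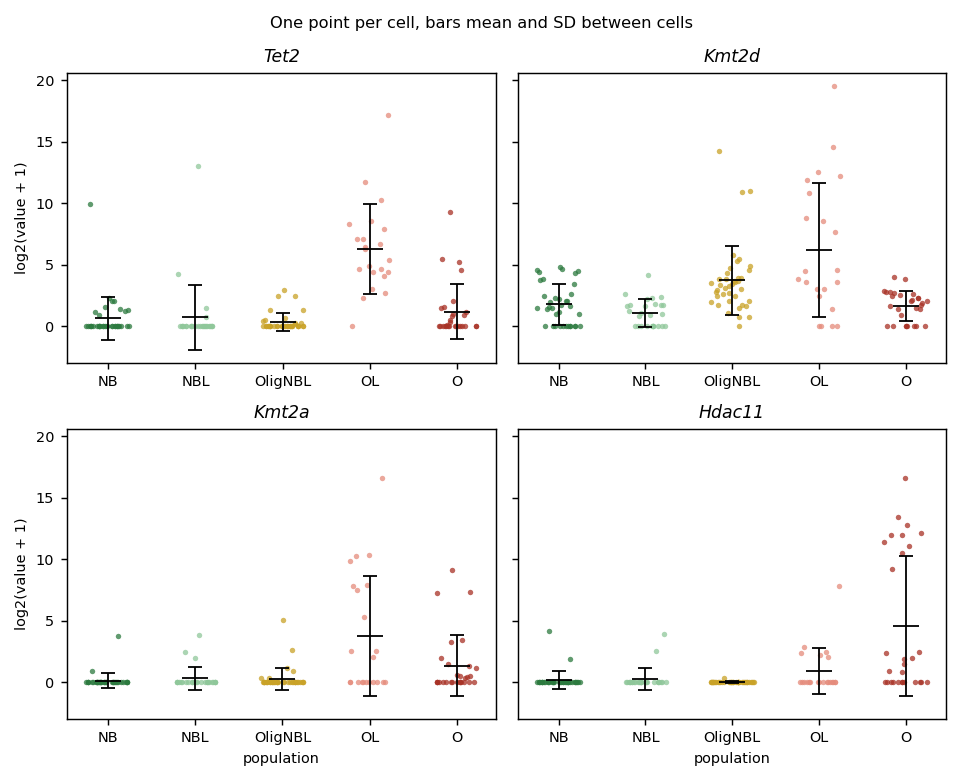
Values of Tet2, Kmt2d, Kmt2a and Hdac11, as log2(value + 1), with 1 point per cell and bars for the mean and SD between cells in each population. Tet2 is present in 18 of 22 OL cells, Kmt2d is spread over OL and OligNBL, and the high Hdac11 cells are in O.

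Demethylases take methyl groups off the same histone tails. Kdm5a and Kdm5b, which act on lysine 4 of histone H3, were highest in OligNBL, at 3.95 ± 4.87 and 3.20 ± 3.37. Kdm5a was at 0.38 to 1.48 elsewhere and was detected in 38 of 40 OligNBL cells, and its difference of 3.57 from NBL was 1.70 without the second block. Kdm5b was also at 2.64 ± 3.45 in NBL against 0.41 ± 1.53 in NB, a difference of 2.24 that was 0.07 without the last NBL and NB blocks. Against OL and NB, OligNBL differed in Kdm5b by 2.87 and 2.80, both apart by blocks, with 1.64 and 1.87 without the first block.

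Kdm6a and Kdm6b, which remove the Polycomb mark on lysine 27 of histone H3, were highest in NB. Kdm6b was at 4.92 ± 4.09 in NB (0 to 18.99, median 4.09), 4.02 ± 5.87 in NBL (median 1.77), 2.64 ± 2.58 in OligNBL, 1.30 ± 1.57 in OL and 3.11 ± 3.38 in O. The gene was present in 25 of 35 NB cells and in 8 of 27, 7 of 40, 2 of 22 and 11 of 29 of the others, with wide overlap. Kdm6a was at 3.46 ± 3.77 in NB, 1.39 ± 2.70 in NBL, 1.61 ± 2.05 in OligNBL, 0.14 ± 0.46 in OL and 0.35 ± 0.73 in O. O differed from NB by -3.11, apart by blocks, and NBL from NB by -2.08, or -0.69 without the last block.

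Tet2, which oxidizes methylated cytosine, was high in OL. Its level was 6.29 ± 3.62 in OL (0 to 17.16, median 5.84), against 1.20 ± 2.21 in O (0 to 9.29), 0.65 ± 1.72 in NB (0 to 9.92), 0.73 ± 2.61 in NBL (0 to 13.05) and 0.32 ± 0.73 in OligNBL (0 to 2.93), all 4 with a median of 0. All but 1 OL cell held Tet2, and the OL median lay above every OligNBL cell. The gene was present in 18 of 22 OL cells (81.8%, exact interval 59.7 to 94.8) against 4 of 29, 1 of 35, 2 of 27 and 0 of 40. OL differed from O by 5.09, apart by blocks, with 3.19 without the first block and 6.44 without the second, and by 5.34 among cells with at least 1000 genes detected. OligNBL differed from OL by -5.97. In 12 OL cells Tet2 and Kmt2d were both among the highest genes, with only Tet2 there in 6 and only Kmt2d in 2. No O cell had both among its highest genes, and whether Tet2 and Kmt2d go together within cells was not tested. In the same OL cells the summed mature oligodendrocyte level was higher than in O, as given above, and its part in the Tet2 difference was not tested. Dnmt1, which copies DNA methylation in dividing cells, was at 0.75 or less in all 5 populations.

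Chromatin genes outside these name families were counted from a list of other remodelers, histone modifiers and histones, of which 57 were in the table. After demyelination 9 of 57 were at least 2 higher in NBL than in NB (15.8%, all genes 9.76%) and 5 lower (8.77%, all genes 8.39%). In OL against O, 2 were higher (3.51%, all genes 8.36%) and 3 lower (5.26%, all genes 7.92%). OligNBL had 5 higher (8.77%, all genes 12.2%) and 9 lower (15.8%, all genes 10.3%) than NBL. Against OL it had 8 higher (14.04%, all genes 13.2%) and 3 lower (5.26%, all genes 12.2%). Against NB it had 7 higher (12.3%, all genes 12.8%) and 8 lower (14.04%, all genes 12%). O had 4 higher (7.02%, all genes 12.3%) and 10 lower (17.5%, all genes 13.5%) than NB. For NBL against NB, 15.8% of the listed genes were higher, where the members had 7.69% and all genes 9.76%. Baz2b, a bromodomain remodeler subunit, stood with Smarca2, at 4.47 in OligNBL and at most 0.66 elsewhere. Ep400, the motor of the Tip60 complex, was at 6.84 in NBL and at most 1.16 elsewhere, and Srcap, the motor that deposits H2A.Z, at 6.55 in NB and at most 1.82 elsewhere. The histone variant genes H3f3a and H3f3b were lower in OligNBL than in NBL by differences of -3.31 and -4.48.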

How the data were processed

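RNA of 155 single cells was measured by SMART-Seq2. The submitters' processing notes name kallisto, limma and the build GRCm38 (versions not given in the sources used here). Named for estimated counts, the deposited table holds a normalized signal: the 8 highest deposited signal values were equal in all cells (relative tolerance 1e-06) and totals ran from 5155900 to 5161090, so no count model was used. The sources used here do not say how its genes were chosen.

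Cells were grouped by labelled population. As no mouse is named, a population counted as 1 sample, with no p-value. Level is the mean of log2(value + 1), which understates differences of low genes. Presence is a rank within the 500 highest genes of a cell, and 2 NB cells with fewer detected genes were left out of it. Detection is a value above the cell's minimum, because 1 NB cell holds a small constant in place of 0. Differences of at least 2 were counted for all genes as background. Shares have exact Clopper-Pearson 95% intervals.

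Members, lists and roles were chosen with earlier results of these data known. The 36 named members were the 5 largest differences each way per comparison with presence differing by 20 points, the highest of each role, and 17 measured genes of 22 fixed. Values of the other 16 members, and of genes outside the families, were singled out after being seen. The values of 1 member are not reported here. Doublets were not called. Shared 31-base words were counted over GENCODE vM21 transcripts. Steps were tested on simulated data. Tools were matplotlib 3.10.9, scipy 1.17.1, pandas 2.3.3, numpy 2.4.6 and Python 3.11.15. Alternatives covered the pseudocount, rank limit, detection, low values, the highest cells, blocks of cell numbers and sets of alike cells.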

Additional observations from a re-analysis of the deposited data

Results flagged for a closer look

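Brd9 differed in opposite directions between lesion and healthy cells in the GFP and the Tomato gates. Its level differed by -2.81 between NBL and NB and by 4.30 between OL and O, and the difference between these 2 contrasts was not tested. Each rested on a block of cell numbers, since it was -0.69 without the last block in the GFP cells and 0.88 without the first block in the Tomato cells.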

How the results depend on the processing

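With a pseudocount of 10, which shrinks differences of low values by construction, members at least 2 higher and lower numbered 2 and 1 in NBL against NB, 3 higher in OL against O, 5 higher in OligNBL against NBL, 3 and 5 in OligNBL against OL, and 3 and 7 in OligNBL against NB. Without the second block of cell numbers, 8 were higher in NBL than NB, 6 lower in OL than O and 5 higher in O than NB, and without the first block 4 were lower in OL than O. With sets of alike cells weighted equally, 8 were higher in NBL than NB. With 2 blocks in place of 3, 21 members were apart in NBL against NB, 21 in OL against O, 30 in OligNBL against NB and 30 in O against NB. Counts under these other settings were made for members only, with no share over all genes to set beside them. Members per cell among the 300 highest genes were 8.91 in NB, 8.22 in NBL, 6.53 in OligNBL, 6.59 in OL and 5.41 in O, and by any value above 0 they were 22.6, 24.8, 26.2, 18.9 and 22.03. Of 765 values of single-gene differences that were at least 2, 4 changed sign: Hdac2 in NBL against NB (-0.26 without the second block), Kmt2c in NBL against NB (0.063 without the last block), Hdac3 in OL against O (-0.11 without the first block) and Kmt2d in OligNBL against OL (1.24 without the first block). What the blocks share is not known here, and the cause was not tested. Of 1179 values of differences under 2, 9.75% changed sign, such as Kmt2e in OligNBL against OL (1.78 to -1.20) and Kmt2c in OL against O (-1.92 to 1.22), both without the first block. Cbx5 in OligNBL against NBL was -3.68 with a pseudocount of 10. The remaining 156 summary values stayed within 1.5 times the reported count or, for medians and means, within the spread. Leaving out genes of low signal removed Arid4a alone among the 52. Leaving out the 2 NB cells with few genes, and leaving out genes tied at the 500th rank, were added after seeing the data. No paired analysis was possible because no test is run and the numbers in the titles name cells. Depth cannot be read from these values, so absence in a cell cannot be told from a missed transcript.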
